A study of Mus musculus with 4 samples.

Results

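The genes described here encode the ephrins and their Eph receptors, the Slits and their Robo receptors, and the netrins with their receptors of the Unc5 and DCC families. The choice was made with earlier results of these data known. It went by name: protein-coding genes whose symbol is a numbered Epha or Ephb, Efna or Efnb, Slit, Robo, Unc5 or netrin symbol, together with Dcc and Neo1. Of 39 mouse symbols that match, 33 have a row among the 32948 genes of the count table. These are 7 ephrins, 12 Eph receptors, 3 netrins, 4 Unc5 receptors, 2 members of the DCC family, 2 Slits and 3 Robos. Efna3, Epha6, Epha8, Ntn5, Robo3 and Slit1 were not analysed here.

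These proteins tell growing axons, migrating cells and vessel sprouts where to go. Ephrins and Eph receptors are both bound to membranes, so the signal passes where cells touch and can run into either cell. Efna proteins are held by a lipid anchor and mostly bind Epha receptors, while Efnb proteins cross the membrane and mostly bind Ephb receptors. Slits and netrins are secreted. Slits repel cells through Robo receptors, and netrins attract through DCC and neogenin or repel through Unc5 receptors. In embryos, Eph and ephrin proteins also steer neural crest cells, and Efnb2 and Ephb4 are classical markers of arterial and venous endothelium.

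Wnt1-Cre;Rosa26-mTmG mice gave the cells, which were dissociated from ascending aorta together with aortic arch and sorted by fluorescence alone. In these animals every cell carries a reporter that makes membrane tdTomato until Cre cuts that part out, after which the cell and its descendants make membrane GFP. Cre is driven by Wnt1 regulatory sequence, active in the dorsal neural tube and early neural crest. GFP cells therefore had a Wnt1-Cre history, and tdTomato cells had none that recombined the reporter. GFP and tdTomato cells were taken from the same suspension, once from 1 female sample and once from a pool of 2 male samples, and each of the 4 combinations gave 1 library. All animals shared the Cre and reporter genotype, and the sources used here give no age, genetic background or treatment. Sex cannot be told apart from suspension or from pooling.

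Library totals were 13678668 and 10094167 estimated counts for female and male GFP cells, and 13911111 and 12837085 for female and male tdTomato cells. The GFP libraries were less rich: 12008 (female) and 9517 (male) genes reached 10 counts, against 16227 and 15669 in the female and male tdTomato libraries. Levels are given as CPM, counts per 1000000 counts of the library after TMM scaling, and a level of 0 CPM allows up to 0.238 and 0.319 CPM in the female and male GFP libraries and 0.201 and 0.216 CPM in the tdTomato ones. The labels call all cells vascular smooth muscle cells. Apart from Des, the smooth muscle marker genes were abundant in every library. Acta2 had 6738 and 4083 CPM in female and male GFP cells, against 4889.7 and 3692 CPM in tdTomato cells. Markers of other cells were present too. The 10 endothelial markers summed to 60.3 and 562 CPM in female and male GFP cells, against 456 and 312 CPM in tdTomato cells, and the 8 adventitial fibroblast markers summed to 2992 and 267 CPM in GFP cells, against 2793 and 3232 CPM in tdTomato cells. The 7 measured macrophage markers summed to 30.5 and 0.426 CPM in GFP cells, against 28.3 and 86.3 CPM in tdTomato cells. Cd14 and Csf1r made up the female GFP sum. Mrc1, Cd68, Lyz2, C1qa and C1qb had 0 counts in that library, as 12.9% of all genes did. Of the 7, 5 were at least 2-fold lower in GFP cells in both pairs, against 22.9% of all genes. The 7 neuron markers summed to 0.317 and 0.213 CPM in GFP cells, against 24.2 and 21.0 CPM in tdTomato cells. Nearly all of the neuron sum in tdTomato cells was 1 gene, Stmn2, at 22.9 and 20.2 CPM. Pericyte markers summed to 599.8 and 2195 CPM in GFP cells, against 853 and 602 CPM in tdTomato cells, and the 1 measured mesothelium marker of 4 had 2.46 and 12.2 CPM, against 2.14 and 2.52 CPM. In sorted cells measured in bulk, fewer cells of a type and less RNA per cell cannot be told apart.

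Netrin-1 and ephrin-A5 ligands and the netrin receptor Unc5c were among the most abundant guidance transcripts. Divided by transcript length (CPM per kb), the order in female GFP cells was Epha2 at 20.4, Unc5c at 18.6, Ntn1 at 18.5, Efna5 at 17.0 and Ephb3 at 13.2. The male GFP order was Efnb2 at 128, Efna5 at 61.8, Unc5c at 29.8, Ntn1 at 18.4 and Efnb3 at 16.2 CPM per kb. Efna5, Unc5c and Ntn1 thus stood in the top 5 of both GFP libraries, with Efna5 overlapping the other 2. Unc5c lay above Ntn1 in both, by little in female GFP cells. In female tdTomato cells the order was Efna5 at 51.9, Ntn1 at 39.2, Epha3 at 12.2, Ntn4 at 11.8 and Efnb2 at 10.7 CPM per kb, and in male tdTomato cells Ntn1 at 40.3, Efna5 at 33.5, Ntn4 at 17.8, Efna1 at 11.0 and Neo1 at 8.09 CPM per kb. Ntn1 and Efna5 led both tdTomato libraries, again with overlapping levels. The 3 most abundant guidance genes of each library held 56.6% (female) and 80.2% (male) of all guidance CPM in GFP cells, against 54.7% and 56.6% in tdTomato cells.

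**Figure D1:**
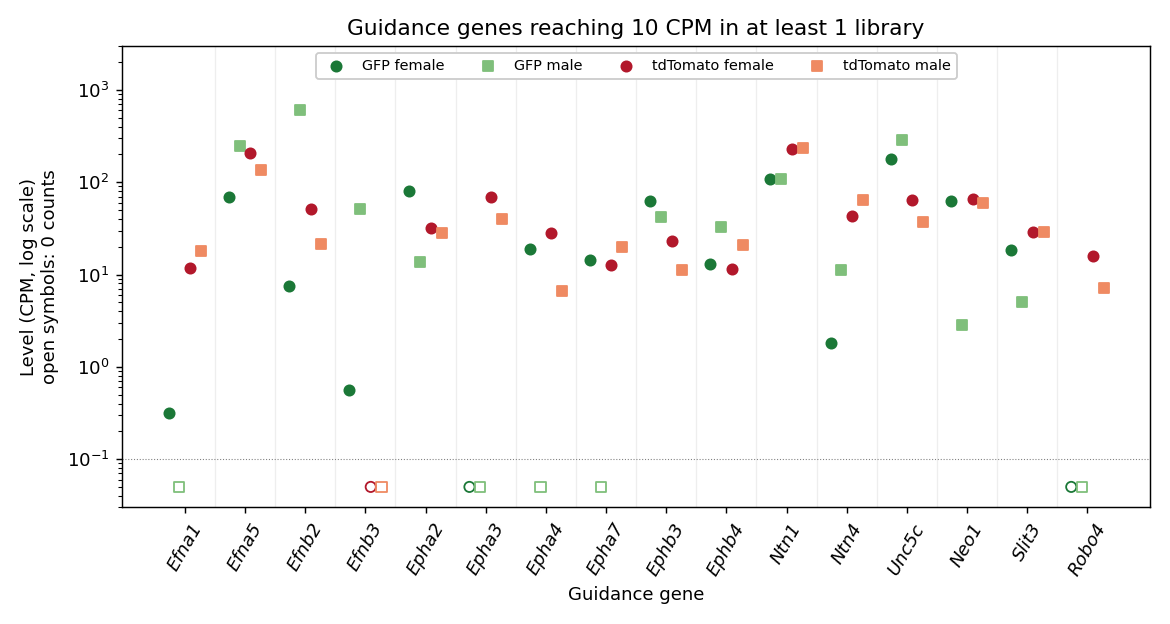
Levels in CPM (log axis) of the 16 guidance genes that reached 10 CPM in at least 1 of the 4 libraries, with 1 point per library and open symbols for 0 counts. Ntn1 pairs closely by colour (109 and 108 CPM in GFP cells, against 231 and 237 CPM in tdTomato cells), whereas Efnb2 spans 7.60 to 614 CPM within GFP cells alone.

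Summed over each family, GFP cells of both suspensions had more Unc5 receptor RNA and less netrin and Robo RNA than tdTomato cells, while the ephrins went opposite ways in the suspensions. Unc5 receptors summed to 182 and 292 CPM in female and male GFP cells, against 67.0 and 39.5 CPM in tdTomato cells. Netrins summed to 112 and 119.5 CPM in GFP cells, against 274 and 302 CPM in tdTomato cells. The colours did not overlap for either family. Robos summed to 0 and 0.319 CPM in female and male GFP cells, against 16.5 and 7.62 CPM in tdTomato cells, and Slits to 18.4 and 5.75 CPM in GFP cells, against 33.4 and 29.3 CPM in tdTomato cells. Ephrins summed to 77.3 and 914 CPM in female and male GFP cells, against 281 and 194 CPM in tdTomato cells. The 2 GFP libraries thus lay on either side of the tdTomato libraries for ephrins. Eph receptors summed to 196 and 100.1 CPM in GFP cells, against 192 and 139 CPM in tdTomato cells, and the colours overlapped. The DCC family, nearly all of it Neo1, summed to 62.9 and 2.87 CPM in GFP cells, against 66.3 and 59.8 CPM in tdTomato cells, with the male GFP library low.

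**Figure D2:**
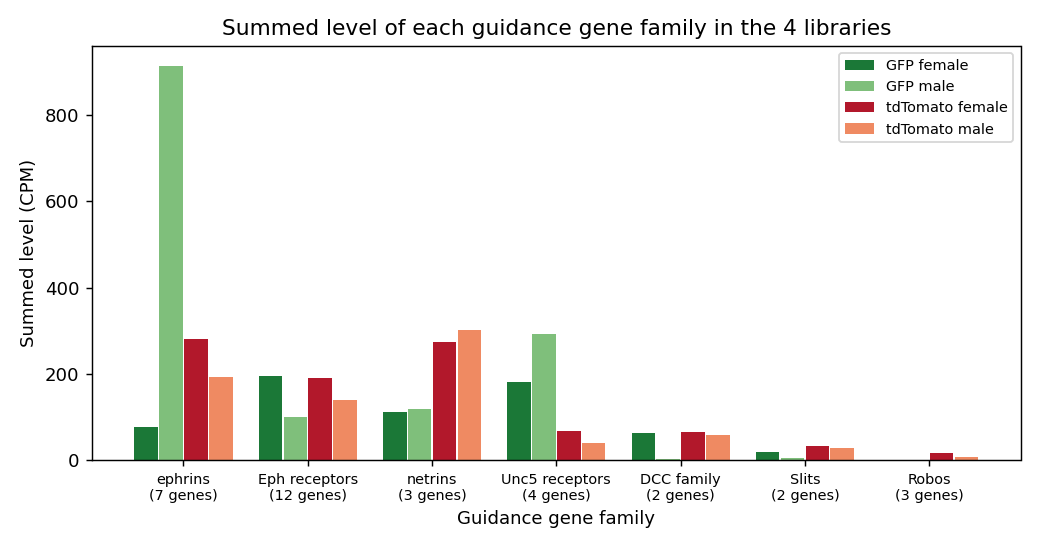
Summed CPM of each guidance gene family, with 1 bar per library from 0. Unc5 receptors lie higher in the GFP libraries (182 and 292 CPM) than in the tdTomato libraries (67.0 and 39.5 CPM), netrins lie lower, and the ephrin sum of the male GFP library (914 CPM) stands above the other 3 libraries.

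The comparison of GFP with tdTomato cells asks how aortic cells with a Wnt1-Cre history differ from their neighbours. Of the 33 genes, 21 passed the filter on low counts, which asks for about 10 counts in 2 libraries, so a gene near 0 in GFP cells could pass through the tdTomato libraries alone. With 2 suspensions as the replicates and 1 residual degree of freedom, the quasi-likelihood test of edgeR (Benjamini-Hochberg adjusted p under 0.05) called 0 of the 21 and 0.0% of the 15055 genes tested, and limma-voom also called 0. At an unadjusted p under 0.05 edgeR had 4 guidance genes lower in GFP cells (Efna2, Efnb1, Epha3 and Robo4), against 8.33% of all genes, and 0 higher, against 0.292% of all genes. DESeq2, on the same design and threshold, called 4 of the 21 lower in GFP cells (Efna1, Efna2, Epha3 and Robo4), against 7.36% of all genes, and 0 higher, against 0.325% of all genes. By size alone, 7 of the 21 (33.3%) were at least 2-fold lower in GFP cells in both suspensions, against 22.9% of all genes, and 2 (9.52%) at least 2-fold higher, against 5.17% of all genes. Colours without overlap were common among all genes. Both GFP libraries lay below both tdTomato libraries for 8 of the 21 (38.1%), against 29.3% of all genes. They lay above both for 2 of the 21 (9.52%), against 11.5% of all genes. In the female pair 10 of the 21 (47.6%) were at least 2-fold lower in GFP cells, against 37.8% of all genes, and in the male pool 13 (61.9%), against 50.0% of all genes. The median log2 ratio of the 21 (prior count 2) was −0.74 in the female sample and −2.48 in the male pool, against −0.27 and −1.0 over all genes. In opposite directions in the 2 suspensions, at least 2-fold each, were 2 of the 21, against 19.2% of all genes. They were Efnb2, lower in female and higher in male GFP cells (7.75% of all genes), and Epha2, the other way round (11.5% of all genes). With DESeq2's size factors Epha2 was less than 2-fold apart in the male pair (log2 ratio −0.79), and Efna5 was at least 2-fold apart in opposite directions (−1.48 for the female and 1.12 for the male pair). Lower levels in GFP cells were thus common among all genes, and the guidance genes are described against that shift.

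**Figure D3:**
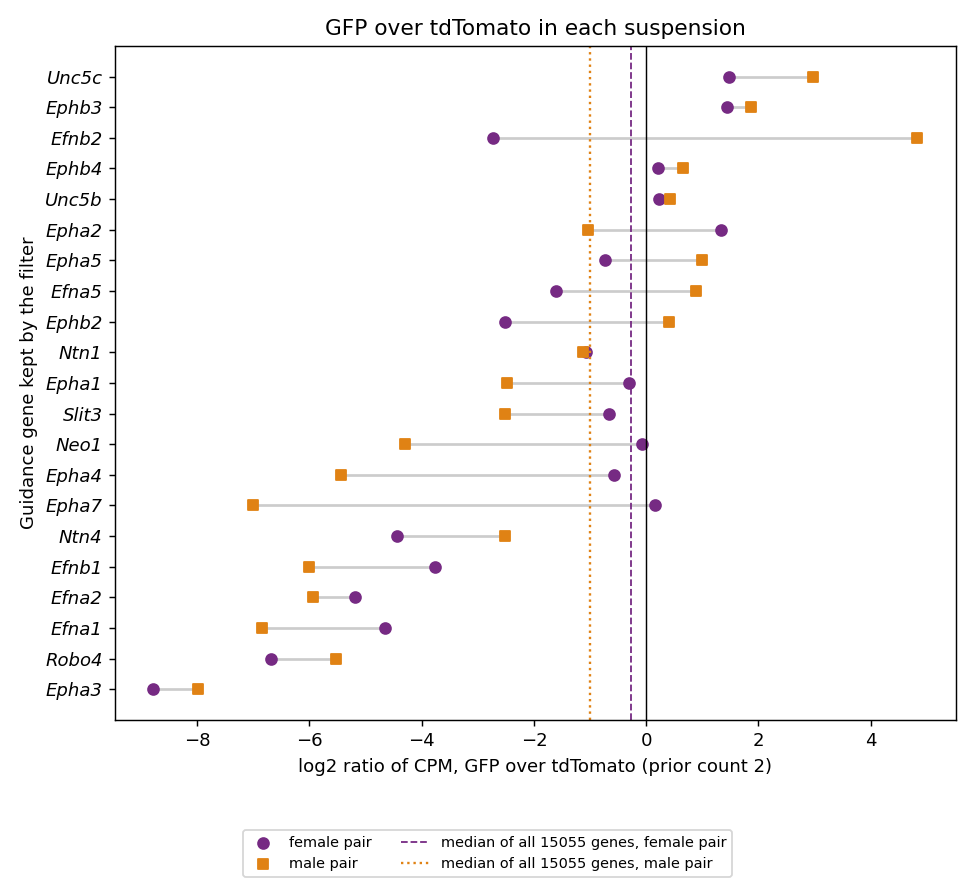
Log2 ratio of CPM, GFP over tdTomato (prior count 2), of the 21 guidance genes that passed the filter, with 1 point for the female and 1 for the male pair and lines at the medians of all 15055 genes (−0.27 and −1.0). Unc5c and Ephb3 lie above 0 in both pairs, Epha3 and Robo4 far below 0 in both, and Efnb2 has −2.73 for the female and 4.83 for the male pair.

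Among ephrins bound by lipid, Efna5 was the abundant one. Efna5 (ENSMUSG00000048915) had 68.7 and 249 CPM in female and male GFP cells, against 209 and 135 CPM in tdTomato cells. The colours overlapped, with the male GFP library highest and the female GFP library lowest. GFP cells were 3.05-fold lower in the female sample (95% interval 2.82 to 3.29, counting error only) and 1.84-fold higher in the male pool (1.73 to 1.96). The edgeR log2 fold change was −0.36 ± 1.2 (SE; adjusted p = 1). Efna1 and Efna2 were low and found almost entirely in the tdTomato libraries. Efna1 (ENSMUSG00000027954), a ligand that endothelium is known to make, had 0.317 and 0 CPM in female and male GFP cells, against 11.8 and 17.98 CPM in tdTomato cells. That was 37.4-fold lower in the female sample (14.3 to 139) and at least 56.3-fold lower in the male pool, and the colours did not overlap. Efna2 (ENSMUSG00000003070) had no count in either GFP library, against 5.55 and 9.50 CPM in tdTomato cells, at least 23.4-fold lower in the female sample and at least 29.7-fold lower in the male pool. The edgeR log2 fold changes were −7.02 ± 3.25 for Efna1 (adjusted p = 0.69) and −9.52 ± 3.11 for Efna2 (adjusted p = 0.577), while DESeq2 gave adjusted p = 0.0337 and 0.03. Efna4 held at most 0.144 CPM in any library.

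Efnb2 and Efnb3, which cross the membrane, differed widely between the GFP libraries. Efnb2 (ENSMUSG00000001300), the arterial ephrin, which smooth muscle and pericytes also use, had 7.60 and 614 CPM in female and male GFP cells, against 51.5 and 21.4 CPM in tdTomato cells. The male GFP library was the highest and the female GFP library the lowest of the 4, so the colours overlapped. GFP cells were 6.77-fold lower in the female sample (5.47 to 8.46) and 28.6-fold higher in the male pool (25.5 to 32.3). The log2 ratio averaged 1.05 ± 5.35 (SD, n = 2 pairs) and the edgeR log2 fold change 1.05 ± 3.52 (SE; adjusted p = 1). Efnb3 (ENSMUSG00000003934), best known as a midline barrier to spinal axons, had 0.554 and 51.6 CPM in female and male GFP cells, against 0 counts in both tdTomato libraries. It had 485 counts in the male and 7 in the female GFP library, so 1 library held nearly all of it, and it did not pass the filter. It exceeded the tdTomato level by at least 2.76-fold in the female sample and by at least 239-fold in the male pool. Efnb1 (ENSMUSG00000031217), the X-linked ephrin of craniofacial neural crest, had 0.0792 CPM (1 count) in female and 0 in male GFP cells, against 3.08 and 9.93 CPM in tdTomato cells. It was 38.8-fold lower in the female sample (6.63 to 1567) and at least 31.1-fold lower in the male pool, with no overlap of the colours (edgeR log2 fold change −6.74 ± 2.6, adjusted p = 0.577).

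The male GFP library that held the high Efnb2 also stood apart for some markers of other cell types. Rgs5, a pericyte marker that arterial smooth muscle also expresses, had 333 and 1689.9 CPM in female and male GFP cells, against 495 and 292 CPM in tdTomato cells. The pericyte list was uneven. Abcc9 had 78.2 and 95.9 CPM in female and male GFP cells, against 149.6 and 133.9 CPM in tdTomato cells. Pdgfrb had 53.7 and 49.3 CPM in GFP cells, against 31.9 and 39.2 CPM in tdTomato cells. Cspg4 and Kcnj8 were, like Rgs5, highest in the male GFP library. The endothelial sum in that library (562 CPM) was nearly all Erg, a transcription factor, at 44.4 and 549 CPM in female and male GFP cells, against 57.8 and 59.6 CPM in tdTomato cells. Cdh5, Tek, Tie1, Kdr, Ptprb, Emcn and Egfl7 had 0 counts in male GFP cells, 7 of the 10 endothelial markers, against 23.4% of all genes. Pecam1 and Vwf were detected there. Pecam1 had 15.2 and 11.8 CPM in female and male GFP cells, against 51.0 and 41.4 CPM in tdTomato cells. Vwf had 0.0792 and 0.852 CPM in GFP cells, against 27.4 and 21.1 CPM in tdTomato cells. The part of pericyte or Erg-expressing cells in the Efnb2 level was not tested.

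Of the Epha receptors, Epha3 showed the widest gap between colours. Epha3 (ENSMUSG00000052504), a receptor of mesenchyme in the developing heart cushions and elsewhere, had no count in either GFP library, against 68.9 and 39.7 CPM in female and male tdTomato cells. It was at least 289.9-fold lower in GFP cells in the female sample and at least 124-fold lower in the male pool. The edgeR log2 fold change was −12.45 ± 3.75 (adjusted p = 0.577, unadjusted p = 0.0293), which depends on how 0 counts are handled, and the adjusted p was 0.00368 by DESeq2 and 0.228 by limma-voom. Among the 21 guidance genes 3 had 0 counts in both GFP libraries (14.3%: Epha3, Efna2 and Robo4), against 6.64% of all genes tested. Pdgfra, a receptor that marks adventitial fibroblasts, moved alongside Epha3, with 0 and 0.426 CPM in female and male GFP cells, against 68.6 and 61.9 CPM in tdTomato cells. Of the 8 fibroblast markers, 4 were at least 2-fold lower in GFP cells in both pairs, against 22.9% of all genes. Dcn, a matrix proteoglycan, had 2134 and 153 CPM in female and male GFP cells, against 1920 and 2236 CPM in tdTomato cells. The part of fibroblasts in the Epha3 difference was not tested.

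Epha2, Epha4 and Epha7 had in common a low male GFP library. Epha2 (ENSMUSG00000006445), an epithelial and endothelial receptor for Efna1, had 79.7 and 13.6 CPM in female and male GFP cells, against 31.6 and 28.0 CPM in tdTomato cells. The GFP libraries were the highest and the lowest of the 4, on either side of the tdTomato ones. GFP cells were 2.53-fold higher in the female sample (2.26 to 2.82) and 2.05-fold lower in the male pool (1.68 to 2.53), with an edgeR log2 fold change of 0.15 ± 2.07 (adjusted p = 1). Epha4 (ENSMUSG00000026235), which binds ephrins of both classes, had 19.01 and 0 CPM in female and male GFP cells, against 28.4 and 6.62 CPM in tdTomato cells. It was 1.495-fold lower in the female sample (1.27 to 1.76) and at least 20.7-fold lower in the male pool, and the colours overlapped. Epha7 (ENSMUSG00000028289), a receptor for Efna ligands, had 14.4 and 0 CPM in female and male GFP cells, against 12.8 and 20.1 CPM in tdTomato cells. In the female pair the colours were close (1.12-fold, 0.911 to 1.38, below 1 when scaled by library totals), and in the male pool GFP cells were at least 62.8-fold lower. Neither gene passed (edgeR log2 fold changes −3.78 ± 4.17 for Epha4 and −4.12 ± 5.62 for Epha7, adjusted p = 1 for both). Epha5, Epha1 and Epha10 stayed under 10 CPM in every library. Epha5 had 4.51 and 9.47 CPM in female and male GFP cells, against 7.62 and 4.68 CPM in tdTomato cells, and Epha1 had 2.14 and 0 CPM in GFP cells, against 2.68 and 0.719 CPM in tdTomato cells. Epha1 overlaps Zyx on the opposite strand, and since the library kit does not mark strand its low counts cannot be separated from that abundant gene.

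Of the Ephb receptors, Ephb3 was higher in GFP cells of both suspensions. Ephb3 (ENSMUSG00000005958), a receptor for the transmembrane ephrins with roles in palate and commissure formation, had 62.7 and 41.5 CPM in female and male GFP cells, against 22.9 and 11.3 CPM in tdTomato cells. Both GFP libraries lay above both tdTomato libraries, by 2.73-fold in the female sample (2.41 to 3.11) and 3.68-fold in the male pool (3.05 to 4.45). The log2 ratio averaged 1.65 ± 0.3 (SD, n = 2 pairs), while the edgeR fit, which takes its spread from all genes, gave 1.66 ± 1.94 (SE; adjusted p = 1). Ephb4 (ENSMUSG00000029710), the venous endothelial partner of Efnb2, had 13.1 and 33.0 CPM in female and male GFP cells, against 11.4 and 20.9 CPM in tdTomato cells. The colours overlapped, and the female pair differed by 1.16-fold (0.928 to 1.44, below 1 when scaled by library totals), the male pair by 1.58-fold (1.34 to 1.86). Ephb4 overlaps Zan on the opposite strand, which had 1609 and 895 counts in female and male GFP cells, against 723 and 389 counts in tdTomato cells, so reads of the 2 genes cannot be separated. Ephb1, Ephb2 and Ephb6 reached at most 3.74, 5.28 and 1.65 CPM. Ephb1 and Ephb6 had their highest level in male tdTomato cells.

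Ntn1 and Ntn4 were lower in GFP cells of both suspensions. Ntn1 (ENSMUSG00000020902), the secreted guidance cue that gave the family its name, had 109 and 108 CPM in female and male GFP cells, against 231 and 237 CPM in tdTomato cells. Levels hardly varied within a colour and the colours did not overlap. GFP cells were 2.12-fold lower in the female sample (1.99 to 2.26) and 2.18-fold lower in the male pool (2.04 to 2.35), and on the log2 scale the ratio averaged −1.10 ± 0.03 (SD, n = 2 pairs). With the spread of all genes the edgeR log2 fold change was −1.11 ± 0.94 (SE; adjusted p = 1). The male value lies close to the median of all genes in that pair (−1.0 on the log2 scale) and the female value lies beyond it (−0.27). With DESeq2's size factors the Ntn1 log2 ratios were −0.96 and −0.89 for the female and male pair, less than 2-fold. The guidance genes at least 2-fold lower in GFP cells in both pairs were then 6 of the 21, against 7 with TMM. Of all 15055 genes, 3262 were then at least 2-fold lower in both pairs, against 3444 with TMM. Ntn4 (ENSMUSG00000020019), a netrin of basement membranes that binds laminin, had 1.82 and 11.3 CPM in female and male GFP cells, against 42.9 and 64.9 CPM in tdTomato cells. GFP cells were 23.6-fold lower in the female sample (15.6 to 37.5) and 5.75-fold lower in the male pool (4.70 to 7.10), without overlap of the colours, and the edgeR log2 fold change was −3.53 ± 2.3 (adjusted p = 0.983). Ntn3 had 17 counts in female GFP cells (1.35 CPM) and 0 in male GFP cells, against 0.134 and 0.144 CPM in tdTomato cells, and it overlaps Tbc1d24 on the same strand.

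Per length, Unc5c was the most abundant netrin receptor measured in GFP cells, at 18.6 and 29.8 CPM per kb in female and male GFP cells. Unc5c (ENSMUSG00000059921), which mediates repulsion by netrin-1, had 179 and 288 CPM in female and male GFP cells, against 64.7 and 36.7 CPM in tdTomato cells. Both GFP libraries lay above both tdTomato libraries, by 2.77-fold in the female sample (2.57 to 2.99) and 7.84-fold in the male pool (7.13 to 8.64). The edgeR log2 fold change was 2.22 ± 1.16 (SE), with an unadjusted p of 0.114 and an adjusted p of 0.802. An antisense gene, Gm15688, overlaps it and has no row of its own. Unc5b, a netrin receptor of endothelium, had 2.77 and 3.83 CPM in female and male GFP cells, against 2.34 and 2.81 CPM in tdTomato cells, and the colours overlapped. Unc5a and Unc5d held at most 0.158 and 0.106 CPM. Neo1 (ENSMUSG00000032340), neogenin, the widely expressed relative of DCC, had 62.6 and 2.87 CPM in female and male GFP cells, against 66.1 and 59.7 CPM in tdTomato cells. The male GFP library alone was low: the female pair differed by 1.06-fold (0.962 to 1.16, its direction turning with size-factor scaling) and GFP cells of the male pair were 20.8-fold lower (14.2 to 31.7; edgeR adjusted p = 1). Dcc, the attractive netrin receptor of neurons, held at most 0.317 CPM.

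Markers of glia were higher in the same colour as Unc5c and Ephb3. The 6 Schwann cell markers summed to 128 and 109 CPM in female and male GFP cells, against 8.23 and 18.3 CPM in tdTomato cells. The sum was uneven over the list, with 3 of the 6 at 0 counts in female and 1 in male GFP cells. Sox10, which defines the lineage, had 0 and 0.106 CPM in GFP cells, against 0 counts in both tdTomato libraries. The 5 measured melanocyte markers summed to 212 and 134 CPM in GFP cells, against 80.9 and 78.6 CPM in tdTomato cells, but the list went both ways. In both pairs Dct was at least 2-fold higher in GFP cells and Kit at least 2-fold lower, Dct at 127 and 114 CPM in GFP cells, against 35.1 and 39.8 CPM in tdTomato cells, and Kit at 0 and 0.213 CPM, against 7.69 and 19.9 CPM. The smooth muscle sum was also somewhat higher in GFP cells, at 17060 and 14621 CPM, against 13231 and 12439 CPM in tdTomato cells. That list was uneven too. Acta2, Myh11, Myl9 and Lmod1 were higher in GFP cells in both pairs. Tagln and Cnn1 were lower in the male pair, and Smtn and Synpo2 in the female pair. Des was lower in both, at 4.67 and 5.96 CPM in GFP cells, against 19.5 and 21.8 CPM in tdTomato cells. The part of Schwann cells, melanocytes or smooth muscle cells in the Unc5c and Ephb3 levels was not tested.

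Of the Slits, Slit3 was the abundant one, and Robo4 the Robo. Slit3 (ENSMUSG00000056427), a secreted Slit of mesoderm and vessel walls, had 18.3 and 5.00 CPM in female and male GFP cells, against 29.2 CPM in each of the tdTomato libraries. GFP cells were 1.59-fold lower in the female sample (1.36 to 1.88) and 5.84-fold lower in the male pool (4.31 to 8.07), and the colours did not overlap (edgeR log2 fold change −1.61 ± 2.32, adjusted p = 1). Slit2 held 4.28 CPM in female tdTomato cells and under 1 CPM in the other 3 libraries. Robo4 (ENSMUSG00000032125), an endothelial Robo that steadies vessels, had no count in either GFP library, against 15.98 and 7.12 CPM in tdTomato cells. That was at least 67.3-fold lower in the female sample and at least 22.3-fold lower in the male pool, with an adjusted p of 0.577 by edgeR and 0.0164 by DESeq2. Endothelial markers moved with it: in both pairs 9 of 10 had levels at least 2-fold lower in GFP cells, against 22.9% of all genes, and Kdr and Egfl7 had 0 counts in both GFP libraries. The part of endothelial cells in the Robo4, Efna1 and Efna2 differences was not tested. Robo1 and Robo2, the Slit receptors of neurons and mesenchyme, held at most 0.504 and 0.0669 CPM, so RNA of a Slit was present with little RNA of the measured Robos beside Robo4.

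Low levels were common: 17 of the 33 genes stayed under 10 CPM in every library, the highest of them at 9.93 CPM, and 7 stayed under 1 CPM. The 7 were Dcc, Efna4, Epha10, Robo1, Robo2, Unc5a and Unc5d. Of the 33 genes, 9 and 14 had 0 counts in female and male GFP cells, against 6 and 5 in female and male tdTomato cells. The GFP libraries also had fewer genes at 10 counts over the whole table. The matching shares of all genes are not given here for the 33. Among the 21 that passed the filter, 14.3% and 38.1% had 0 counts in female and male GFP cells, against 12.9% and 23.4% of all genes.

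Promoters of some receptors among the 21 genes that passed the filter are shown. They are the 2 with 0 counts in both GFP libraries and the 2 at least 2-fold higher in GFP cells in both pairs. These receptors were taken since both suspensions gave each of them the same direction. Each window runs from 250 bases before to 50 bases after the start of the gene, 5′ to 3′ on the gene's strand, from RefSeq on GRCm38.p6, an earlier build than the GRCm39 of the counts. Capitals mark matches, on either strand, to a GC box (GGGCGG), an ETS core (CCGGAA), an E-box (CANNTG, which reads the same way on both strands) or a TATA box (TATAAA). Where no capital stands, none of the 4 was found in the window.
Epha3 (chr16:63864126-63864425, minus strand): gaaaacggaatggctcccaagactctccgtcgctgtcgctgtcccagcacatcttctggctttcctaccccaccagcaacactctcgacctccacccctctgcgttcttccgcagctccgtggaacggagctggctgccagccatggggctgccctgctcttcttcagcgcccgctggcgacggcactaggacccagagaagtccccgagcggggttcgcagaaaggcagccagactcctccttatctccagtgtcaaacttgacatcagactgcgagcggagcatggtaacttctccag
Robo4 (chr9:37401722-37402021, plus strand): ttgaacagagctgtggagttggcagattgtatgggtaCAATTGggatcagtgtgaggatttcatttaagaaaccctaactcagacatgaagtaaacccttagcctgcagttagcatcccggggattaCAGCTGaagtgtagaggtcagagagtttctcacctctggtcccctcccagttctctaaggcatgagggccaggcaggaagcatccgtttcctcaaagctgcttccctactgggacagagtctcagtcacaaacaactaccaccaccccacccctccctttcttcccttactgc
Ephb3 (chr16:21204545-21204844, plus strand): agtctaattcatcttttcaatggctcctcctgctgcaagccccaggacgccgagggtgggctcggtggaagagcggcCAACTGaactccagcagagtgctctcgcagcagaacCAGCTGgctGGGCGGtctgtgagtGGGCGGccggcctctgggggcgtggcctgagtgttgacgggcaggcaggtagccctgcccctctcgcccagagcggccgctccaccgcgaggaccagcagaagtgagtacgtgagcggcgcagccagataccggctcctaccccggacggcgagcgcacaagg
Unc5c (chr3:141465314-141465613, plus strand): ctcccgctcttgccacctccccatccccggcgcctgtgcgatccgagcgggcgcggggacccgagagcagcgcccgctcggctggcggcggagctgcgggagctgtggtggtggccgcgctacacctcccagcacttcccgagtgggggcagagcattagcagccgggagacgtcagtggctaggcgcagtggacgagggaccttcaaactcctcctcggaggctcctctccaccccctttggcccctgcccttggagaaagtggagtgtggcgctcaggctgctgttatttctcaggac
The windows share no motif pattern within a pair. Epha3 and Unc5c, which lay on opposite sides of the comparison, both held none of the 4, Robo4 held 2 E-boxes, and Ephb3 held 2 GC boxes and 2 E-boxes. Over 32851 windows of the same length, 35.7% held a GC box, 14.9% an ETS core, 72.3% an E-box and 13.6% a TATA box. By base composition Robo4 stood apart from the other 3, with 2 CpG and 50.3% G and C, against 18 CpG and 60.7% for Epha3, 23 CpG and 66.7% for Ephb3, and 24 CpG and 68.3% for Unc5c. The medians over all windows were 7 CpG and 52.7% G and C. Windows were found for 29 of the 33 genes, some with more than 1, and 22 of their 33 windows held a GC box, 12 an E-box, 3 an ETS core and 2 a TATA box.

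The male and female suspensions were compared within each colour, with 1 library on each side and no test. Between sexes edgeR, with colour as a term, called 0 of the 21 guidance genes and 0.0% of all genes. At an unadjusted p under 0.05 it also had 0 of the 21 (1.74% of all genes), and DESeq2 called 0 of the 21 (0.93% of all genes). In GFP cells 7 of the 21 (33.3%) were at least 2-fold lower in the male library, against 40.4% of all genes, and 6 (28.6%) at least 2-fold higher, against 27.9% of all genes. The guidance genes thus varied between the GFP libraries about as all genes did. Epha1, Epha2, Epha4, Epha7, Neo1 and Slit3 were among those lower in male GFP cells, together with Efna1 at 0 counts in the male and 4 in the female library. Those higher in male GFP cells were Efna5, Efnb2, Epha5, Ephb2, Ephb4 and Ntn4. Efnb2 was 80.7-fold higher in male than in female GFP cells (66.0 to 99.8) and 2.40-fold lower in male than in female tdTomato cells (2.10 to 2.76). Neo1 was 21.8-fold lower in male than in female GFP cells (14.8 to 33.2) and nearly level in tdTomato cells, 1.11-fold lower in the male library (1.01 to 1.22).

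In tdTomato cells 6 of the 21 (28.6%) were at least 2-fold lower in the male library, against 21.6% of all genes, and 1 (4.76%) at least 2-fold higher, against 20.6% of all genes. The 6 were Efnb2, Epha1, Epha4, Ephb2, Ephb3 and Robo4, and the 1 was Efnb1, at 9.93 CPM in male and 3.08 CPM in female tdTomato cells, 3.23-fold higher (2.30 to 4.61). Epha4 was 4.29-fold lower in male than in female tdTomato cells (3.42 to 5.44), and both Ntn1 and Slit3 were within 1.03-fold. Of the 21, 8 (38.1%) had 0 counts in the male GFP library, against 23.4% of all genes, and 3 (14.3%) in the female GFP library, against 12.9% of all genes. The male GFP library also had the lowest total and the fewest genes detected of the 4.

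**Figure D4:**
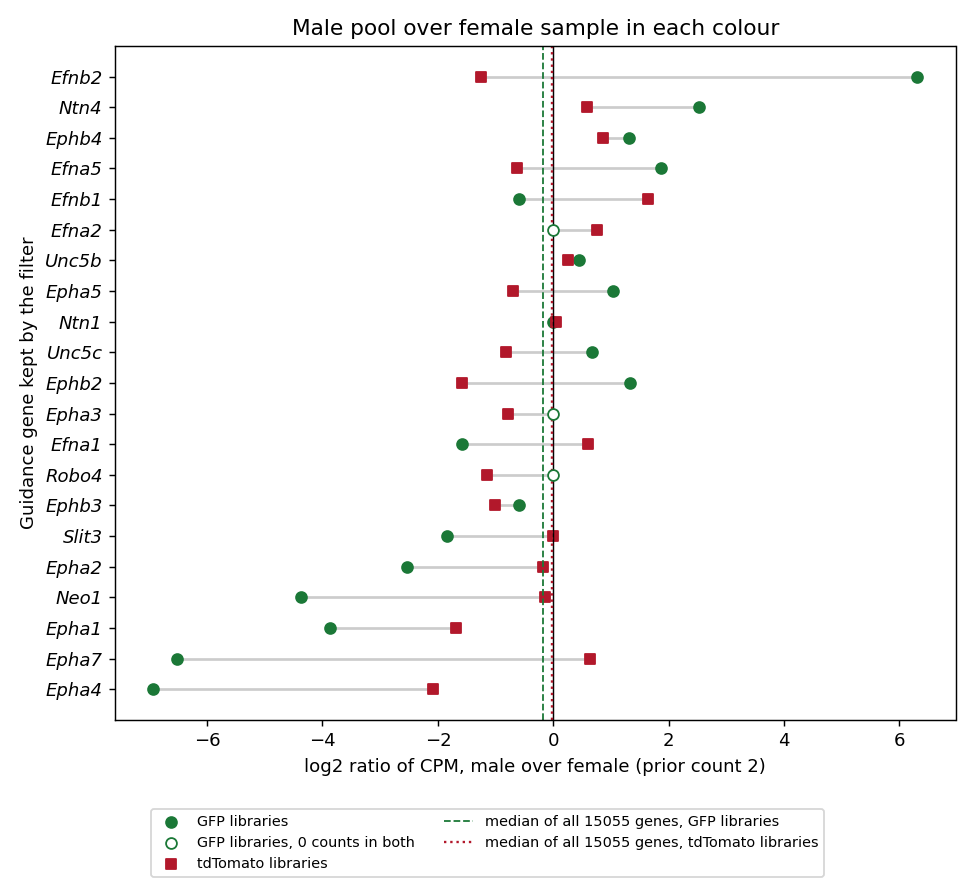
Log2 ratio of CPM, male over female (prior count 2), of the 21 guidance genes that passed the filter, with 1 point for the GFP and 1 for the tdTomato libraries, open symbols where both libraries had 0 counts, and lines at the medians of all 15055 genes (−0.18 and −0.02). The GFP points range far wider than the tdTomato points: Efnb2 is 80.7-fold higher and Neo1 21.8-fold lower in male than in female GFP cells.

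Cytoplasmic partners, co-receptors and further ligands of the same pathways were read from lists of 64 genes, of which 60 have a row and 48 passed the filter. By edgeR's adjusted p 0 of the 48 passed, and at an unadjusted p under 0.05 Fyn, Tiam1, Sdc1, Ablim1 and Siah1a were lower in GFP cells, against 8.33% of all genes. DESeq2 called Fyn, Nck2, Tiam1, Ablim1 and Siah1a lower in GFP cells, 5 of the 48, against 7.36% of all genes, and 0 of the 48 higher, against 0.325%. Of 20 partners of Eph receptors and ephrins, 8 (40.0%) were at least 2-fold lower in GFP cells in both pairs, against 22.9% of all genes, and 2 (Ngef and Sdcbp) at least 2-fold higher, against 5.17%. Their median log2 ratios were −0.85 and −0.83 for the female and male pair, against −0.27 and −1.0 over all genes. Nck2, an adaptor that links phosphorylated receptors to actin, had 0 and 1.06 CPM in female and male GFP cells, against 19.8 and 24.3 CPM in tdTomato cells. Fyn, a Src-family kinase used by Efna signalling, and Tiam1, a Rac activator bound by Epha2, had 0 counts in both GFP libraries. Fyn had 9.10 and 15.7 CPM in female and male tdTomato cells, and Tiam1 had 4.68 and 18.2 CPM. Nck1 and Abl2 were likewise lower in GFP cells, Nck1 at 0.238 and 3.73 CPM, against 14.4 and 41.5 CPM in tdTomato cells, and Abl2 at 2.61 and 2.34 CPM, against 16.1 and 21.3 CPM in tdTomato cells. Sdcbp, syntenin, which binds the tails of Efnb ligands, had 929 and 299.7 CPM in GFP cells, against 268 and 142 CPM in tdTomato cells. Both Ptpn11, a phosphatase, and Rasa1, a Ras regulator, were highest in the male GFP library, as Efnb2 was. Ptpn11 had 125 and 442 CPM in GFP cells, against 142 and 170.1 CPM in tdTomato cells, and Rasa1 had 161 and 393 CPM in GFP cells, against 152 and 83.1 CPM in tdTomato cells.

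Of 12 Slit and Robo partners, 3 (25.0%: Evl, Sdc1 and Srgap3) were at least 2-fold lower in GFP cells in both pairs, against 22.9% of all genes, and 1 (Srgap2) at least 2-fold higher, against 5.17% of all genes. Their median log2 ratios were −0.05 and −1.11 in the female and male pair, against −0.27 and −1.0 over all genes, and the share of lower genes was near that of all genes. Evl, an actin regulator, had 0.792 and 0 CPM in female and male GFP cells, against 7.76 and 9.21 CPM in tdTomato cells. Enah, its abundant relative, had 1162 and 2057 CPM in GFP cells, against 974 and 601 CPM in tdTomato cells, so the 2 lay on opposite sides. Sdc1, a heparan sulfate carrier, had no count in either GFP library, against 3.01 and 2.88 CPM in tdTomato cells. Dag1, dystroglycan, which binds Slits, had 116 and 37.0 CPM in GFP cells, against 66.1 and 118 CPM in tdTomato cells, and Usp33, which stabilises Robo1, had 67.7 and 5.96 CPM in GFP cells, against 39.0 and 96.7 CPM in tdTomato cells. Both were lowest in male GFP cells, as Neo1 was.

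Of 16 netrin and Unc5 partners, 4 (25.0%: Ablim1, Rgma, Rgmb and Siah1a) were at least 2-fold lower in GFP cells in both pairs, against 22.9% of all genes, and 1 (Ptk2) at least 2-fold higher, against 5.17%. The medians were −0.35 and −0.85, against −0.27 and −1.0 over all genes, so these partners too stood near all genes. Rgma and Rgmb, the membrane-anchored ligands of neogenin, were low where Ntn1 was low. Rgmb had 3.25 and 2.87 CPM in female and male GFP cells, against 26.3 and 60.3 CPM in tdTomato cells, and Rgma 1.58 and 0 CPM in GFP cells, against 8.96 and 6.91 CPM in tdTomato cells. Ablim1, an actin-binding protein acting downstream of netrin, had 4.75 and 0.958 CPM in GFP cells, against 119.8 and 155 CPM in tdTomato cells, and Siah1a, a ubiquitin ligase of DCC, had no count in either GFP library, against 21.3 and 24.8 CPM in tdTomato cells. Ptk2, focal adhesion kinase, had 72.8 and 463 CPM in GFP cells, against 29.2 and 51.0 CPM in tdTomato cells. Mcam and Maged1, the other abundant members of that list, differed by less than 2-fold in both pairs, at 1012 and 619.9 CPM (Mcam) and 129.9 and 226 CPM (Maged1) in GFP cells, against 1359.6 and 1092 CPM and 116 and 171 CPM in tdTomato cells.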

How the data were processed

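The 4 aortic libraries were compared, 1 for each combination of sort colour and sex. Per the labels' protocols, SMART-Seq v4 cDNA was primed with oligo(dT), amplified by PCR and cut with a transposase, without strand or molecular identifiers. The tools were fastp, HISAT2 and StringTie on GRCm39, per the submitters' processing notes, and what program counted on which annotation is not given in the sources used here. Unscaled estimated counts per gene (expected counts) were deposited by the authors, of which 59.4% to 69.1% were whole (tolerance 1e-06).

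Counts were rounded and scaled by TMM (factors 0.923 and 0.931 for female and male GFP, 1.075 and 1.083 for female and male tdTomato). Symbols, overlaps and transcript lengths (longest coding transcript) came from a GRCm38 annotation that matched 76.4% of identifiers. Genes kept by edgeR's filterByExpr at a minimum of 10 counts (15055) were tested with edgeR 4.0.16 in R 4.3.3 (quasi-likelihood F test, suspension as block, Benjamini-Hochberg at 0.05). DESeq2 1.42.0 and limma 3.58.1 (voom) were alternatives. The edgeR code was also run on simulated data, but how many simulated differences it recovered is not given here. p-values measure the spread between 2 suspensions that differ in sex, and the common dispersion was 1.47. The pairing comes from the series' design text. Across pairs the deviations from the colour means correlated at 0.0546. Comparisons with 1 library a side, and the interaction of colour and sex, have no test. For these, genes at least 2-fold apart were counted on CPM with 2 as prior count. A fold of 1 gene has no prior count and carries an exact 95% binomial interval. Against 0 counts, a fold is a bound from 3 counts in that library. Intervals and bounds cover counting error only.

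The members, partner lists and marker lists were chosen with earlier results of these data known. Guidance genes reaching 10 CPM in any library are given library by library. Of each partner list, the 3 with the highest mean CPM and those at least 4-fold apart in the same direction in both pairs are named, and further ones were chosen after their values were seen.

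The level of 1 marker gene is not reported here.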

Additional observations from a re-analysis of the deposited data

Results flagged for a closer look

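Efnb2 and Epha2 were at least 2-fold apart between GFP and tdTomato cells in opposite directions in the female and male pairs, as 19.2% of all genes were. For Efnb2 the log2 ratio of GFP over tdTomato was −2.73 in the female sample and 4.83 in the male pool. For Epha2 it was 1.33 in the female sample and −1.03 in the male pool. With DESeq2's size factors the Epha2 ratio was −0.79 in the male pool, less than 2-fold, and Efna5 had −1.48 in the female sample and 1.12 in the male pool. The difference between the pairs was not tested, because each combination of colour and sex has 1 library.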

How the results depend on the processing

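Over all genes, the GFP against tdTomato count of 0 calls by edgeR became 1157 with DESeq2 (49 higher, 1108 lower) and stayed at 0 with limma-voom. The male against female count of 0 became 2 without the filter on low counts and 140 with DESeq2. With no replicate block (no term for suspension, or for colour in the comparison of sexes), both counts were also 0. Genes at an unadjusted edgeR p under 0.05 were then 1982 (colour) and 364 (sex), against 1298 and 262 with the block. Since both fits made 0 calls, the count of calls cannot show what the block did. Raising the threshold from 2-fold to 4-fold took the guidance genes higher in GFP cells in both pairs to 0 (2 at 2-fold), those in opposite directions to 1 (2), those higher in GFP cells in the female pair to 0 (3), those higher in male GFP cells to 2 (6), and those lower and higher in male tdTomato cells to 1 (6) and 0 (1). Without the filter, 3 were higher in male tdTomato cells, and 6 and 5 were higher in GFP cells in the female and male pair. DESeq2's size factors also gave 5 in the male pair, where 3702 of all 15055 genes were then higher, against 3244 with TMM. For the 4-fold threshold and for no filter, the matching shares of all genes are not given here. Those counts therefore cannot be set against all genes. Without 1 GFP library (chosen after seeing the data), 10 to 13 guidance genes were at least 2-fold lower than the mean of the tdTomato libraries and 3 to 4 higher. These were 10 (37.7% of all genes) and 3 (22.7%) without male GFP, and 13 (51.3%) and 4 (21.2%) without female GFP.

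Of 210 recomputed log2 fold changes of single guidance genes, 192 kept their direction and side of the threshold, 4 passed it (Efna1, Efna2, Epha3 and Robo4 with DESeq2) and 14 turned direction. Scaling by library totals gave −0.07 for Epha2 and −0.09 for Epha5. The fits that left out single libraries had no term for suspension and their own filter. Losing a library and losing the pairing cannot be told apart in them. With all 4 libraries but no term for suspension, Efnb2 had 3.09 and Epha4 −0.88, against 1.05 and −3.78 in the main fit. Leaving out single libraries gave −2.23 to 4.15 for Efnb2, −1.05 to 1.44 for Epha2, −10.78 to 0.54 for Epha4, −0.42 to 0.70 for Epha5, −0.27 to 1.11 for Ephb4, −7.42 to 0.59 for Epha1, −4.37 to 0.02 for Neo1 and −1.30 to 0.61 for Efna5. The cause was not tested. Epha3 (−12.72 to −11.89), Robo4 (−10.61 to −9.41), Ntn1 (−1.12 to −1.03), Ntn4 (−4.86 to −2.18), Slit3 (−2.46 to −0.65), Unc5c (1.85 to 2.67) and Ephb3 (1.21 to 2.21) kept their direction. Against TMM, DESeq2's size factors moved all ratios by 0.125 (female pair) and 0.239 (male pair) on the log2 scale, and library totals by −0.22 and −0.219. Levels near 1 count in the smaller male GFP library are limited by depth.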
